A study of Mus musculus with 6 samples.

Results

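The genes described here are the claudins, keratins, desmosome genes and their closest partners at epithelial junctions. They were taken by symbol from the annotation of the array: every claudin (Cldn), keratin (Krt), tight junction protein (Tjp), plakophilin (Pkp), desmocollin (Dsc) and desmoglein (Dsg) with a number, plus Dsp, Ocln, Epcam and Jup. This gave 104 of 21893 genes, namely 32 claudins, 53 keratins, 15 desmosome genes, and a group of 4 made of Tjp1, Tjp3, Ocln and Epcam. No measured value was used to choose them, and each gene was read by the probe of highest mean over the 6 arrays. Undifferentiated mouse embryonic stem cells (ESC) of the 46c line, strain 129/Ola, which carries a GFP reporter for the neural gene Sox1, were compared with cells of the same line (NPC) after 5 days of neural differentiation in medium with the supplements NB27 and Neuro2, sorted on GFP. The labels give 3 biological replicates of each group, name 1 cell line and do not state which side of the GFP gate was collected. Whether the replicates came from separate cultures is not stated, so the p-values measure the spread between these 6 samples. Total RNA was read on single-colour Agilent arrays, and all values are the authors' quantile-normalised log2 signals, which ran from 1.03 to 16.18 with a median of 5.32 on every array.

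Epithelial cells are sealed to each other by tight junctions, in which claudins and occludin span the membrane and the zonula occludens proteins (Tjp) tie them to actin. Desmosomes hold cells together mechanically: desmogleins and desmocollins bridge the gap, plakoglobin (Jup) and plakophilins bind their tails, and desmoplakin (Dsp) anchors keratin filaments. Mouse ES cells grow as compact epithelial-like colonies, and neural cells are known to build their filaments from vimentin, nestin and neurofilaments.

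The labels were first checked against markers of each cell type. Of 10 ES cell markers 9 fell in NPC, and of 10 neural progenitor markers 8 rose (9 with the replicate number as a block). These are 90% and 80%, beside 9.54% of all genes that fell and 11.1% that rose (18.9% with the block). Pou5f1, the core pluripotency factor Oct4, had means of 14.42 and 6.67, and Hes5, a Notch effector of neural progenitors, of 5.55 and 14.34. Here and below, a gene rose or fell where limma's Benjamini-Hochberg adjusted p over all 21893 genes was under 0.05, and changes are log2 differences of NPC minus ESC ± SE with n = 3 arrays a group.

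Of the 104 junction and keratin genes, 17 fell and 3 rose. Over all genes tested, 9.54% fell and 11.1% rose, while of these genes 16.3% fell and 2.88% rose. The 20 calls in either direction stood beside 20.6% of all genes, so the share called was near that of all genes while the split between falls and rises was not even. The falls were Epcam, Tjp3, the claudins Cldn3, Cldn5, Cldn6 and Cldn7, the keratins Krt7, Krt8, Krt17, Krt18, Krt19 and Krt20, and the desmosome genes Dsp, Pkp2, Dsg2, Dsc2 and Dsg1b. The rises were Cldn10, Cldn15 and Krt10. The median change was -0.23, beside 0.01 over all genes, and 61 of the 104 (58.7%) lay under 6 on every array, beside 33.5% of all genes. Most members of these large families were thus near the bottom of the scale in both groups, where the authors' table gives no detection call. With the replicate number as a block, 20 fell and 7 rose, beside 16.7% and 18.9% of all genes (35.7% in either direction). With every value below 6 raised to 6, 12 fell and 2 rose, beside 5.92% and 6.97% of all genes (12.9% in either direction). The 3 ESC values all lay above the 3 NPC values in 28 of the 104 genes and all below them in 7, which over all genes happened in 17.4% and 19.6%. In RNA from a whole population, fewer cells with a transcript and less transcript per cell cannot be told apart.

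**Figure D1:**
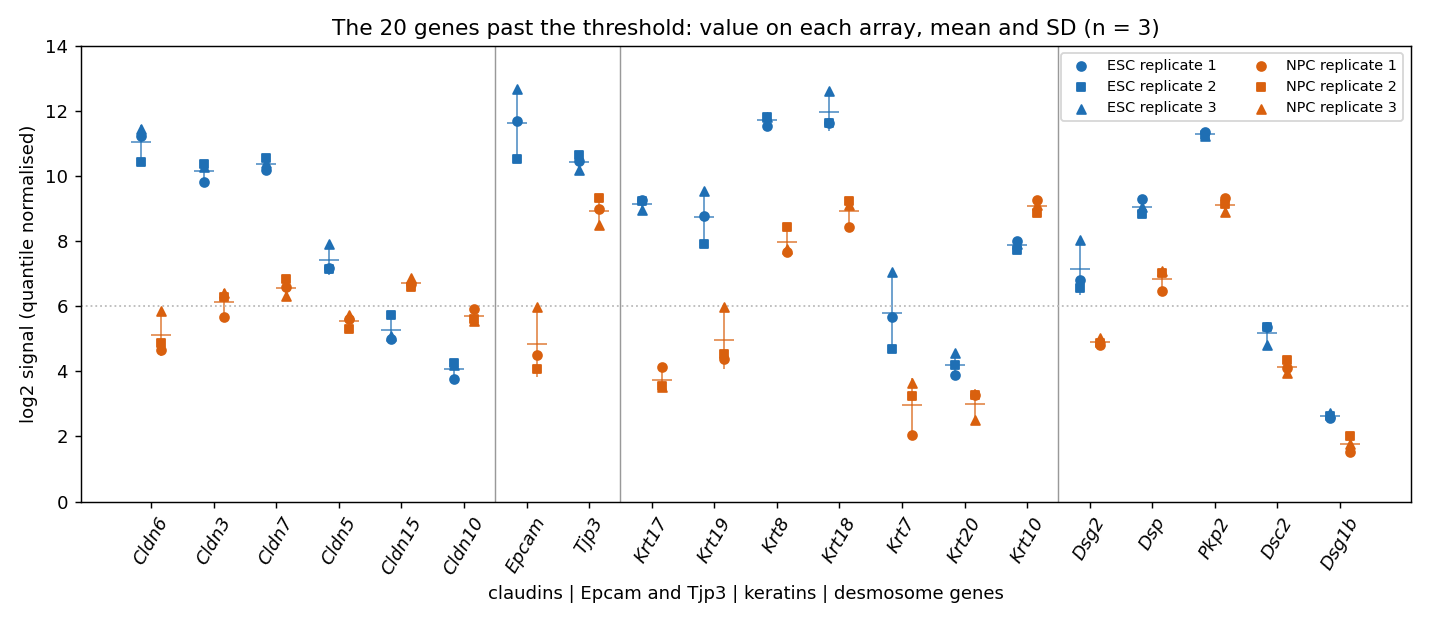
Quantile-normalised log2 signal (vertical axis) of the 20 genes past the threshold on each of 6 arrays, with ESC in blue, NPC in orange, a marker shape for each replicate number, and bars for mean and SD (n = 3). The dotted line is at 6; ESC and NPC do not overlap for any of the 20, and Krt20, Dsc2, Dsg1b and Cldn10 lie under the line on all arrays.

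The sequences around the start sites of genes that fell are shown here, from RefSeq on build GRCm38.p6 (250 bases before to 50 after the start, 5′ to 3′). The E-box CACCTG, read on both strands (as CAGGTG on the other), is the letter pattern that Zeb and Snail repressors are known to bind. Promoters were matched for 68 of the 104 genes. Of 11 genes that fell and had a window, 9 held this E-box (81.8%), as did 17 of 57 other members (29.8%) and 22.6% of all 27025 genes in the table. The 9 are Cldn3, Cldn6, Cldn7, Dsp, Epcam, Krt7, Krt8, Krt18 and Tjp3. The Grainyhead-like pattern AACCNGTT, also read on both strands, was in 1 of the 11 (Cldn5), in 0 of the 57 and in 2.35% of all genes. The patterns were chosen with the changes already known, no test was made, and a match is only a run of letters, not a bound site. Krt17, Krt19, Pkp2, Dsg2, Dsc2 and Dsg1b had no entry. Cldn7 and Tjp3 have more than 1 start site in the table, and a gene was counted if any of its windows held the letters. The windows below are those of the genes that fell and hold 2 E-boxes (for Cldn7, its downstream start site, since the other window holds 0), followed by the neighbouring keratin genes Krt8 and Krt18, with E-boxes in capitals.
Epcam (chr17:87635729-87636028, plus strand): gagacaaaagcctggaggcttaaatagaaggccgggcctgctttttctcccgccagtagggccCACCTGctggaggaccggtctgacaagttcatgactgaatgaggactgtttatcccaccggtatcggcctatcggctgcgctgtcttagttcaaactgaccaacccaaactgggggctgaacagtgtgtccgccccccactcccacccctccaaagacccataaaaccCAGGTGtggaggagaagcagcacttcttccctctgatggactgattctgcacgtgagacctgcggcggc
Cldn6 (chr17:23679115-23679414, plus strand): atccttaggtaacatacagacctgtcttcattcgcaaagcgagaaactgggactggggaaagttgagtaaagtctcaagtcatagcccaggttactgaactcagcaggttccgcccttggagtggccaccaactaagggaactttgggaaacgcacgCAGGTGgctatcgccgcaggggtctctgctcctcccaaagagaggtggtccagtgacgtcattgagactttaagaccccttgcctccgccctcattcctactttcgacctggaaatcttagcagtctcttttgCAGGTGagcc
Cldn7 (chr11:69965171-69965470, plus strand): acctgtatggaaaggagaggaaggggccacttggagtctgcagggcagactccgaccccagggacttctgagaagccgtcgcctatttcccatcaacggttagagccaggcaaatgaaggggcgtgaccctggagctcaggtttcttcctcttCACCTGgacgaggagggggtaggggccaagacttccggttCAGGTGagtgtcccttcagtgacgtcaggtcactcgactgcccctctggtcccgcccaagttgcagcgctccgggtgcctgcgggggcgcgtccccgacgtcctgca
Krt8 (chr15:102004293-102004592, minus strand): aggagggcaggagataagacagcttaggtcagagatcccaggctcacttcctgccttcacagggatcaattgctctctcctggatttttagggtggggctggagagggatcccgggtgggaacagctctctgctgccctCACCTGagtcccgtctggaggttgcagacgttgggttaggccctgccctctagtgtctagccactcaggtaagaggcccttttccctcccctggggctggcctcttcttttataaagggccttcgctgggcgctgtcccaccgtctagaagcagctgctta
Krt18 (chr15:102027966-102028265, plus strand): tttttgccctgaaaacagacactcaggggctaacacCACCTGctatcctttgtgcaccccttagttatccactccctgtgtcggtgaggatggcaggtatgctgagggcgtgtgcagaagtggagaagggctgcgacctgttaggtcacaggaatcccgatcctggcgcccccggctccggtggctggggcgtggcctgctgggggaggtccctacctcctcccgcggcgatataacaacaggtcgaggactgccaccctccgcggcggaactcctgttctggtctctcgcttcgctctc
In Epcam the E-boxes start 187 and 19 bases before the start site, and in Cldn7 97 and 57 bases before it. In Cldn6 the first starts 93 bases before the start site and the second at base 41 after it. Krt8 has its E-box 111 bases upstream and Krt18 214 bases upstream.

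Among the claudins, 4 of 32 fell, 2 rose and 26 did not pass. That is 12.5% falling and 6.25% rising, beside 9.54% and 11.1% of all genes. Cldn6, a claudin known from embryonic epithelia and pluripotent cells, read 11.23, 10.43 and 11.45 in ESC and 4.66, 4.87 and 5.87 in NPC. It fell by 5.91 ± 0.43 (adjusted p = 0.00048), with every ESC array above 10 and every NPC array below 6. Cldn3, a sealing claudin of many epithelia, read 9.81, 10.37 and 10.29 in ESC and 5.68, 6.29 and 6.41 in NPC. It fell by 4.03 ± 0.28 (adjusted p = 0.000432), and the arrays of each group lay close together. Cldn7, a claudin known to bind Epcam, read 10.20, 10.55 and 10.39 in ESC and 6.58, 6.83 and 6.32 in NPC. It fell by 3.80 ± 0.22 (adjusted p = 0.000225), again with no overlap. Its other probe was under 5 on all arrays and differed by -0.47 ± 0.25 without passing. Cldn5, best known from the tight junctions of blood vessels in the brain, read 7.18, 7.13 and 7.92 in ESC and 5.61, 5.31 and 5.72 in NPC. It fell by 1.86 ± 0.28 (adjusted p = 0.00649), a smaller change than that of the other claudins that fell.

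The claudins that rose did so from low values. Cldn10, which forms ion-selective pores in kidney and other epithelia, read 3.75, 4.27 and 4.19 in ESC and 5.91, 5.62 and 5.55 in NPC, so it rose by 1.62 ± 0.23 (adjusted p = 0.00478). With a floor of 6 on all values its difference was 0. Cldn15, a pore-forming claudin of the gut, read 5.00, 5.74 and 5.09 in ESC and 6.68, 6.60 and 6.88 in NPC, so it rose by 1.44 ± 0.26 (adjusted p = 0.0122). With the floor Cldn15 still rose, by 0.72 (adjusted p = 0.0108). Its call ended without ESC replicate 1 (adjusted p = 0.0579).

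Claudin genes that lie side by side on a chromosome did not all give the same reading. Cldn9, the neighbour of Cldn6, read 8.38, 7.18 and 9.76 in ESC and 6.81, 6.59 and 7.20 in NPC. Its groups overlapped, and the difference of -1.57 ± 0.65 did not pass (adjusted p = 0.167), although it did without ESC replicate 2 (adjusted p = 0.0395). Whether the changes of these neighbours differ was not tested. For Cldn4, the neighbour of Cldn3 and a target of the same bacterial toxin in gut epithelium, the answer depended on the probe. The probe of highest mean read 6.87, 5.30 and 11.41 in ESC and 4.81, 4.31 and 5.51 in NPC, so ESC replicate 3 stood far above the other ESC arrays. Its difference was -2.98 ± 1.55 (adjusted p = 0.265). The other probe read 9.87, 8.56 and 10.77 in ESC and 2.65, 1.86 and 3.59 in NPC, with no overlap. It fell by 7.04 ± 0.70 (adjusted p = 0.00197 in a fit of all 30626 named probes), and the mean of both probes fell too (-5.01, adjusted p = 0.0238).

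Of the claudins that did not pass, Cldn12 and Cldn19 had the highest means. Cldn12, an unusual claudin without the usual scaffold-binding tail, had means of 10.59 ± 0.63 in ESC and 11.32 ± 0.50 in NPC (SD). Its difference of 0.73 did not pass (adjusted p = 0.313, but 0.041 with the replicate number as a block). Cldn19, known from kidney and from Schwann cells, read 7.21, 7.84 and 6.02 in ESC and 9.06, 10.35 and 7.61 in NPC. Its difference was 1.98 ± 0.80 (adjusted p = 0.159), and with the block it passed (adjusted p = 0.0059). NPC was above ESC in each same-numbered pair of arrays, by 1.59 to 2.51, while the groups overlapped. Cldn2, a cation-pore claudin, differed by -1.51 and passed only with the block as well (adjusted p = 0.00541), at values under 5 on all arrays. Other neighbouring claudin genes were read near the bottom of the scale. Cldn8 and Cldn17 differed by -0.03 and 0.03, Cldn1 and Cldn16 by 0.27 and -0.05, and none of these passed. Cldn22 differed by -0.51 and its neighbour Cldn24 by -1.67 ± 0.97 (adjusted p = 0.204 and 0.321); Cldn24 read 5.58 on ESC replicate 1 and under 3 on the other arrays. The 9 genes of the Cldn34 family lay under 6 on all arrays and none passed in either direction; they are near copies of each other, so their probes may share signal.

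Epcam, a surface glycoprotein of epithelia and of ES cells that binds Cldn7, had the largest change of all 104 genes. It read 11.69, 10.52 and 12.68 in ESC and 4.51, 4.06 and 5.99 in NPC. It fell by 6.78 ± 0.72 (adjusted p = 0.00177), and with a floor of 6 by 5.63. In both groups replicate 3 was the highest array and replicate 2 the lowest. Each same-numbered pair gave nearly the same difference, from -7.18 to -6.46.

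Of the scaffold genes Tjp1 and Tjp3, the second fell and the first did not pass. Tjp1, the scaffold zonula occludens protein found in both epithelial and neuroepithelial junctions, read 11.50, 11.97 and 10.82 in ESC and 11.93, 11.93 and 11.66 in NPC. The groups overlapped and the difference of 0.41 ± 0.33 did not pass (adjusted p = 0.481). Tjp3, a related scaffold of epithelia, read 10.46, 10.66 and 10.18 in ESC and 9.00, 9.32 and 8.49 in NPC. It fell by 1.50 ± 0.28 (adjusted p = 0.0138), a call that ended without ESC replicate 1 (adjusted p = 0.0642) and without NPC replicate 1 (adjusted p = 0.0539).

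Ocln, which encodes the tight junction membrane protein occludin, was another gene whose probes differed in spread. The probe of highest mean read 4.85, 3.17 and 7.12 in ESC and 1.59, 1.43 and 3.27 in NPC. The highest NPC array reached above the lowest ESC array, and the difference of -2.95 ± 1.07 did not pass (adjusted p = 0.121, but 0.0125 with the replicate block). The other probe read 4.17, 4.53 and 4.93 in ESC and 1.57, 1.42 and 1.34 in NPC and fell by 3.10 ± 0.25 (adjusted p = 0.00102 among all probes). Nearly all values of both probes lay under 6.

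**Figure D2:**
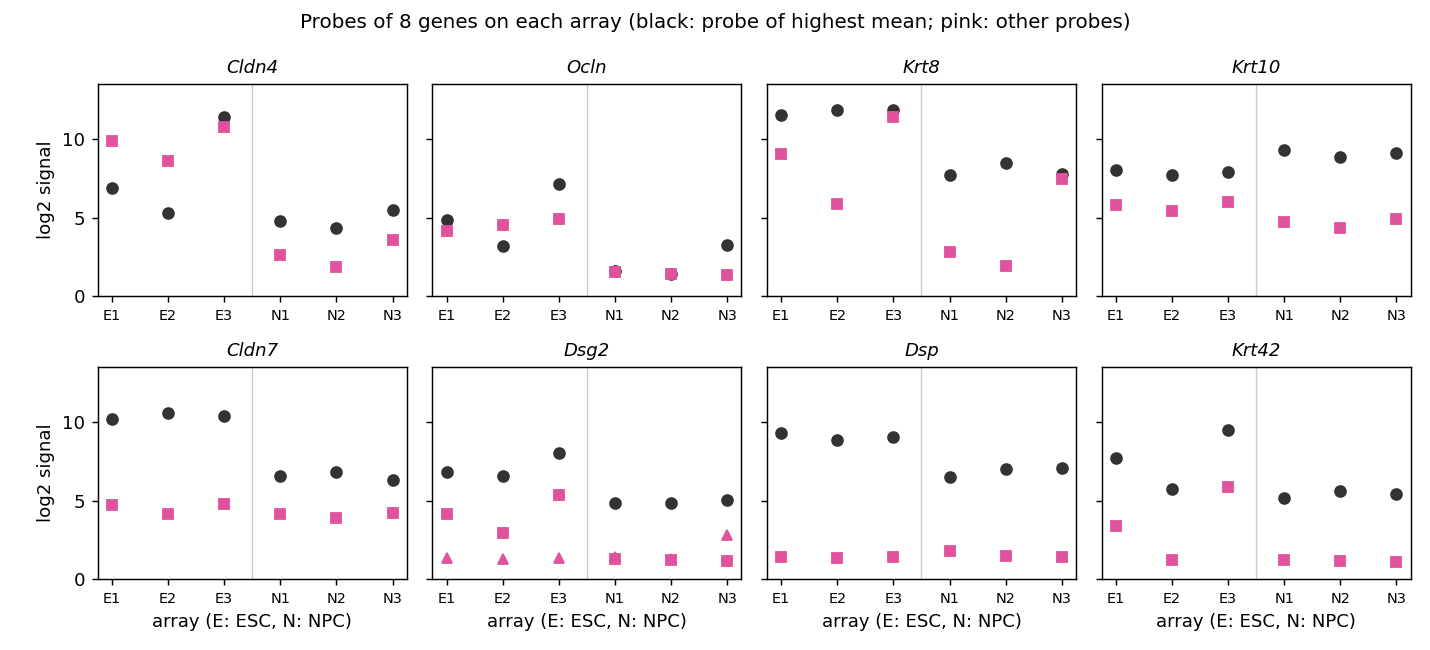
Log2 signal (vertical axis) of all probes of 8 genes on the 3 ESC and 3 NPC arrays, with the probe of highest mean in black and other probes in pink. The probes of Cldn4 and Ocln differ in how far ESC replicate 3 stands out, those of Krt10 move in opposite directions, and the second probes of Cldn7 and Dsp stay low in both groups.

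Of the 53 keratins, 6 fell, 1 rose and 46 did not pass. The 11.3% that fell was near the 9.54% of all genes, and the 1.89% that rose was below their 11.1%. Those that fell are, apart from Krt17, the keratins known from simple, single-layered epithelia: Krt7, Krt8, Krt18, Krt19 and Krt20. This grouping was made after the values were seen. Of the other 48 keratins, 1 fell and 1 rose. Keratin filaments form from a type I and a type II partner, and Krt8 (type II) with Krt18 (type I) is the first such pair of the embryo.

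Krt8 read 11.53, 11.83 and 11.83 in ESC and 7.68, 8.45 and 7.77 in NPC. It fell by 3.77 ± 0.27 (adjusted p = 0.000452). Krt18, the next gene on chromosome 15, read 11.64, 11.64 and 12.61 in ESC and 8.45, 9.24 and 9.10 in NPC. It fell by 3.03 ± 0.37 (adjusted p = 0.00289), so for this partner pair every ESC array lay above 11 and every NPC array below 10. All NPC values of the pair stayed above 7. The second probe of Krt8 read 9.02, 5.85 and 11.37 in ESC and 2.80, 1.95 and 7.47 in NPC and did not pass, with replicate 3 highest in both groups.

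Krt19, a type I keratin without a tail domain, read 8.77, 7.91 and 9.54 in ESC and 4.37, 4.52 and 5.99 in NPC. It fell by 3.78 ± 0.60 (adjusted p = 0.00758), with no overlap between groups. Krt17, a type I keratin known from skin appendages and wounded epidermis, read 9.26, 9.22 and 8.95 in ESC and 4.14, 3.56 and 3.51 in NPC. It fell by 5.40 ± 0.24 (adjusted p = 0.000122), the largest change of a keratin here, and by 3.14 with a floor of 6. Type I keratins are close relatives and cross-reading between their probes was not checked here.

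The calls of the other simple-epithelium keratins were less firm. Krt7, a type II keratin of glandular epithelium, read 5.66, 4.69 and 7.05 in ESC and 2.04, 3.25 and 3.64 in NPC. It fell by 2.82 ± 0.71 (adjusted p = 0.04), a call that held in only 1 of the 6 fits that leave out an array (the one without ESC replicate 2) and that reached an adjusted p of 0.127 in the fit lacking NPC replicate 1. With a floor of 6 it ended too (-0.35, adjusted p = 0.79). Krt20, a keratin of gut epithelium, read 3.88, 4.20 and 4.56 in ESC and 3.28, 3.26 and 2.49 in NPC. It fell by 1.21 ± 0.31 (adjusted p = 0.0437), but the call ended in all 6 such fits (up to 0.121, lacking ESC replicate 3). The replicate block ended it as well, at 0.0563, and with the floor the difference was 0.

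Krt10, the type I keratin of the upper epidermis, rose by its probe of highest mean. That probe read 8.02, 7.73 and 7.91 in ESC and 9.27, 8.87 and 9.11 in NPC, which amounts to a log2 rise of 1.19 ± 0.20 with an adjusted p of 0.00911. A second probe of Krt10 read 5.83, 5.39 and 5.99 in ESC and 4.75, 4.31 and 4.93 in NPC, a fall of 1.08 ± 0.27 (adjusted p = 0.0456 among all probes). The mean of both probes differed by 0.06 (adjusted p = 0.907), so the direction of Krt10 depends on the probe.

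Some keratins with high means did not pass. Krt16, an epidermal stress keratin, read 11.60, 12.59 and 9.88 in ESC and 12.41, 13.15 and 11.30 in NPC. Its groups overlapped, and the difference of 0.93 ± 0.80 had an adjusted p of 0.514, which became 0.0374 under the replicate block. Krt73, a keratin of the hair follicle sheath, read 10.77, 10.52 and 11.01 in ESC and 10.31, 9.95 and 10.17 in NPC. Its groups did not overlap, but the difference of -0.62 ± 0.21 had an adjusted p of 0.103, which became 0.0393 under the block. Krt222, a keratin-like gene, differed by 0.92 ± 0.68 and did not pass (adjusted p = 0.447). Krt1 and Krt32, both under 6 on all arrays, passed with the block only, with differences of 0.52 and -0.95. Krt5 and Krt14, the keratin pair of basal epidermis, differed by 0.12 and -0.68 without passing.

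By gene order in RefSeq, 27 of these keratins lie on chromosome 11 and 26 on chromosome 15. On chromosome 11, 3 fell (11.1%) and 1 rose (3.7%), and on chromosome 15, 3 fell (11.5%) and 0 rose. Over all genes 9.54% fell and 11.1% rose, so the share that fell was near that of all genes on both chromosomes. On chromosome 15 the falls stood at the ends of the row, Krt7 as the second measured gene and Krt8 and Krt18 as the last pair, with 23 genes that did not pass in all. On chromosome 11, Krt17 lay between Krt16 and Krt42. Krt42, known in mouse from the nail, read 7.69, 5.74 and 9.50 in ESC and 5.17, 5.63 and 5.41 in NPC. Its lowest ESC array stood 0.11 above the same-numbered NPC array, and the difference of -2.24 ± 0.91 did not pass (adjusted p = 0.161, and 0.0229 without ESC replicate 2).

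**Figure D3:**
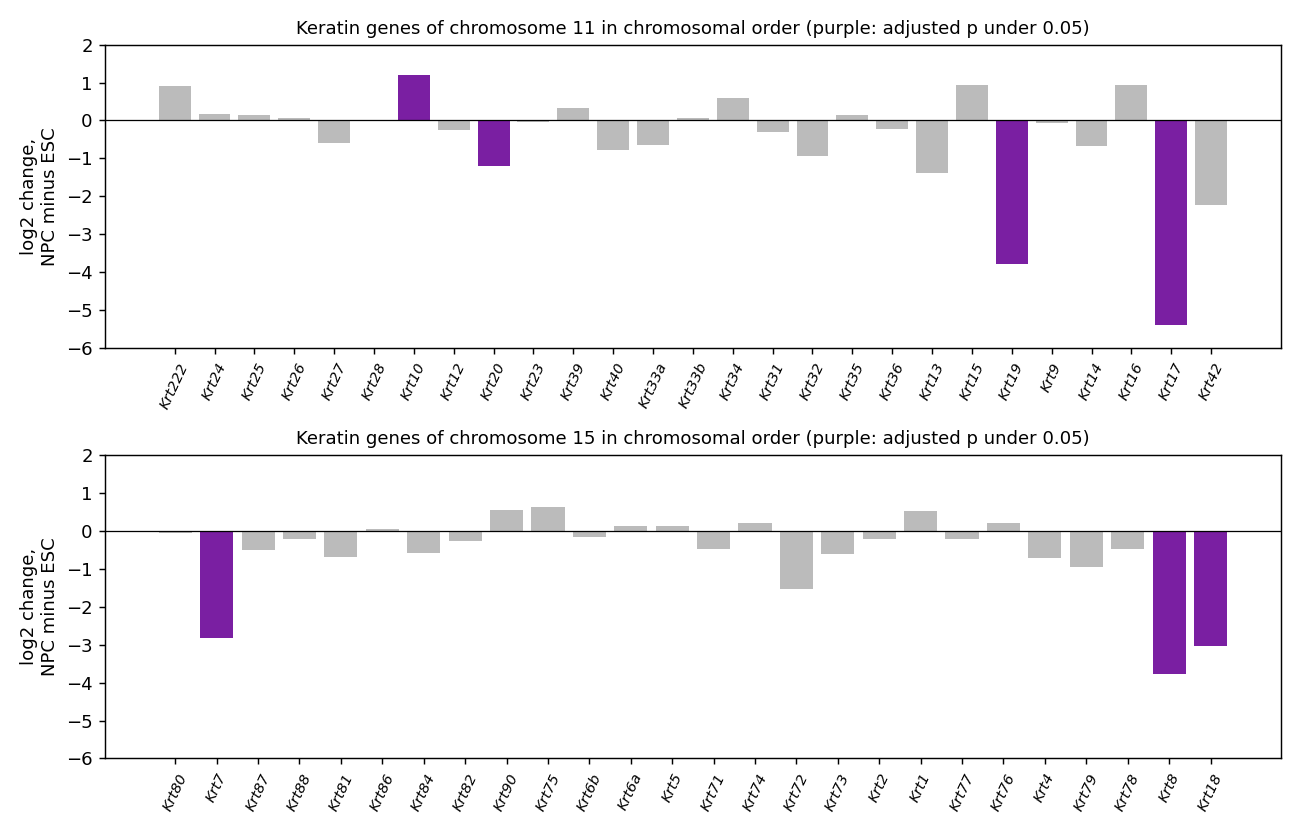
Log2 change (NPC minus ESC, vertical axis) of the 27 keratin genes of chromosome 11 and the 26 of chromosome 15 in chromosomal order, with bars in purple where the adjusted p was under 0.05. Krt19 and Krt17 on chromosome 11 and Krt7 on chromosome 15 stand below their neighbours. The pair of Krt8 and Krt18 at the end of the chromosome 15 row stands below Krt78 beside it.

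Of the 15 desmosome genes, 5 fell (33.3%, beside 9.54% of all genes), 0 rose (beside 11.1%) and 10 did not pass. Dsp, the desmoplakin gene, read 9.29, 8.83 and 9.04 in ESC and 6.47, 7.01 and 7.09 in NPC. It fell by 2.20 ± 0.25 (adjusted p = 0.00232); its other probe was under 2 on all arrays and did not pass. Pkp2, a plakophilin of simple epithelia and heart muscle, read 11.35, 11.27 and 11.22 in ESC and 9.33, 9.14 and 8.89 in NPC. It fell by 2.16 ± 0.19 (adjusted p = 0.000951), with all NPC values above 8. Both genes stayed past the threshold in each of the 6 fits that leave out an array.

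The desmosomal cadherins were low. Dsg2, the desmoglein of simple epithelia, read 6.82, 6.57 and 8.03 in ESC and 4.82, 4.86 and 5.02 in NPC. It fell by 2.24 ± 0.41 (adjusted p = 0.0127), a call that ended without NPC replicate 1 (adjusted p = 0.0582) and with a floor of 6 (-1.14, adjusted p = 0.228). A second probe of Dsg2 fell by 2.93 ± 0.61 (adjusted p = 0.025 among all probes), and the last one, under 3 on all arrays, did not pass. Dsc2, the desmocollin that partners Dsg2, fell by 1.04 ± 0.24 (adjusted p = 0.0316), and Dsg1b fell by 0.86 ± 0.20 (adjusted p = 0.0302). Both were under 6 on all arrays, and each call ended in 5 of the 6 fits that leave out an array, with adjusted p up to 0.128 and 0.101 in the fit lacking ESC replicate 1. The call of Dsc2 held without ESC replicate 3 and that of Dsg1b without NPC replicate 2. With the floor both differences were 0. Dsg1b, Dsg1a and Dsg1c are near copies, so the value of Dsg1b is uncertain. With a floor of 6, 2 desmosome genes fell, Dsp and Pkp2.

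The plaque genes outside this group did not pass. Jup, which encodes plakoglobin and also serves adherens junctions, read 5.77, 4.42 and 7.08 in ESC and 3.97, 4.58 and 4.16 in NPC. The groups overlapped, with a difference of -1.52 ± 0.67 (adjusted p = 0.192, and 0.0366 without ESC replicate 2). Pkp3, a plakophilin of most epithelia, had means of 11.54 ± 0.29 and 11.29 ± 0.75 (SD) and differed by -0.26 ± 0.42 (adjusted p = 0.754). Pkp4, which also binds classical cadherins, had means of 9.28 ± 0.92 and 8.73 ± 1.08 (SD) and differed by -0.55 ± 0.69 (adjusted p = 0.671). Pkp1, a plakophilin of stratified epithelia, did not pass (adjusted p = 0.37, and 0.0357 without ESC replicate 3).

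**Figure D4:**
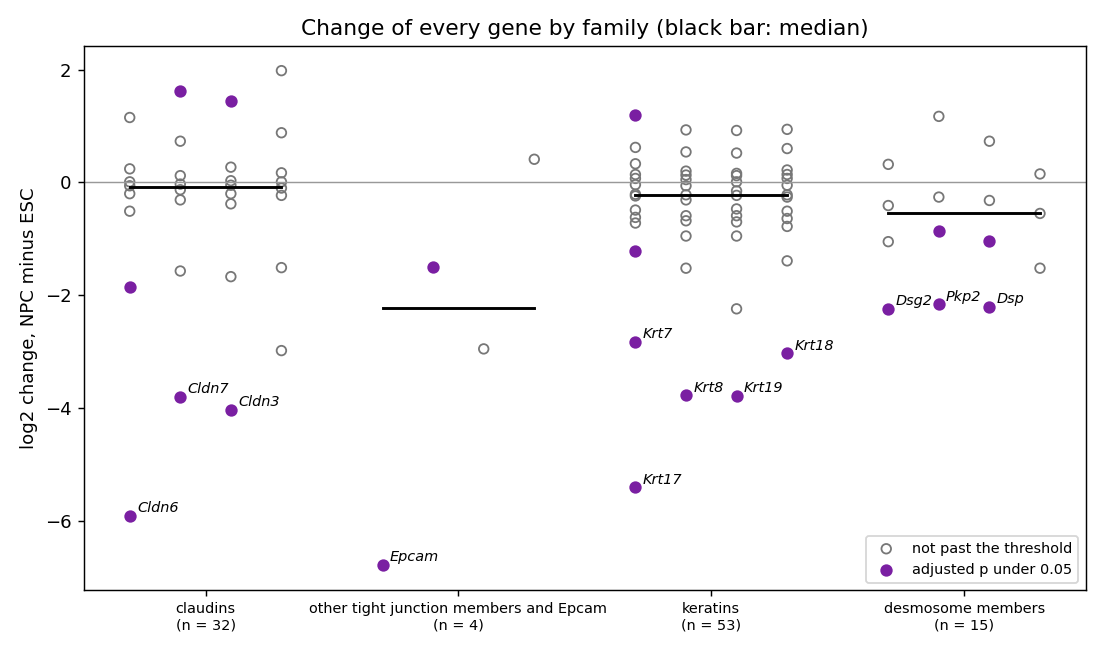
Log2 change (NPC minus ESC, vertical axis) of each of the 104 genes, spread sideways for legibility within 4 families, with filled points where the adjusted p was under 0.05 and a black bar at the family median. The medians of claudins and keratins lie at -0.08 and -0.22, close to 0, while the 12 named genes reach from -2.16 to -6.78.

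The spread among the ESC arrays bears on several of these genes. In 16 of the 104 genes the SD over the 3 ESC arrays was above 1 (15.4%, beside 10% of all genes). In 10 of the 16 ESC replicate 3 was the highest and ESC replicate 2 the lowest array: Cldn4, Cldn9, Dsg1c, Epcam, Jup, Krt13, Krt42, Krt7, Krt79 and Ocln. Of all 2189 genes with such a spread, 64% had this order. Krt13, a keratin of oral epithelium, read 6.49, 5.46 and 9.25 in ESC and 5.54, 5.24 and 6.26 in NPC, a difference that fell short of the threshold at an adjusted p of 0.419. The order is not seen in ESC alone. In Cldn4, Cldn9, Dsg1c, Epcam, Krt13 and Ocln, NPC replicate 3 was also the highest NPC array and NPC replicate 2 the lowest. In Jup, Krt42, Krt7 and Krt79 the NPC order differed. Across all genes, same-numbered arrays deviated together from their group means (r = 0.721 for replicate 2 and 0.768 for replicate 3). What set these arrays apart was not tested.

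Genes that work beside these families were read from lists drawn up by function, listed with earlier results known. Over all genes 9.54% fell and 11.1% rose, or 16.7% and 18.9% with the replicate block. Every list count below is to be read beside these shares. Of 20 tight junction partners, 8 fell (40%) and 2 rose (10%, near the share of all genes), with a median of -0.96. With the replicate block 11 fell and 4 rose, the added rises being Pard3 (0.95, adjusted p = 0.0184) and Magi1 (0.60, adjusted p = 0.031). Ildr1, a protein of junctions between 3 cells, fell by 6.22 ± 0.30 (1.77 with a floor of 6), F11r, a junctional adhesion molecule, fell by 4.76 ± 0.24 and Crb3, an apical polarity protein, fell by 4.36 ± 0.81 (adjusted p = 0.000141, 0.000158 and 0.0135). The call of Crb3 ended without ESC replicate 1, without NPC replicate 1 (adjusted p up to 0.0641) and with a floor of 6 (0.191). Against this direction Jam3, another junctional adhesion molecule, rose by 2.84 ± 0.28 (adjusted p = 0.00126). Of 14 adherens junction and other epithelial adhesion genes, 6 fell (42.9%) and 1 rose (7.14%), with a median of -1.13 (8 and 2 with the replicate block). Cdh1, the E-cadherin gene, fell by 6.19 ± 0.21, Cdh3, the P-cadherin gene, fell by 4.62 ± 0.62, and St14, a membrane protease of epithelia, fell by 4.19 ± 0.26 (adjusted p = 6.09e-05, 0.00408 and 0.000288). Nectin3, an adhesion molecule of the nectin family, rose by 4.95 ± 0.30 (adjusted p = 0.00026), and by 2.34 with the mean of its 4 probes.

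Of 10 partners of desmosomes and hemidesmosomes, 7 fell (70%) and 0 rose, with a median of -2.00 (8 and 0 with the replicate block). Over all genes 9.54% fell and 11.1% rose. Lad1, a basement membrane anchoring protein, fell by 5.08 ± 0.89, Perp, a tetraspan protein of desmosomes, fell by 3.72 ± 0.18, and Itgb4, the hemidesmosome integrin, fell by 3.27 ± 0.25 (adjusted p = 0.0109, 0.000141 and 0.000566). The call of Lad1 ended without ESC replicate 1, without NPC replicate 1 (adjusted p up to 0.0553) and with a floor of 6 (-1.26, adjusted p = 0.403). Of 13 other cytoplasmic intermediate filament genes, 4 rose (30.8%) and 2 fell (15.4%), or 4 and 3 with the replicate block. Nefm, a neurofilament subunit, rose by 4.65 ± 1.03, Nes, the nestin gene, rose by 3.78 ± 0.66, and Vim, the vimentin gene, rose by 2.43 ± 0.18 (adjusted p = 0.0256, 0.0108 and 0.00049). The call of Nefm ended without ESC replicate 1, ESC replicate 2 or NPC replicate 1 (adjusted p up to 0.0799) and with a floor of 6 (0.0914). That of Nes ended without NPC replicate 1 (0.0534). Nefh, the heavy neurofilament subunit, fell by 3.94 ± 0.59 (adjusted p = 0.00604). In the same samples Krt8 and Krt18 fell, as given above. The ESC means of Vim, Nes and Nefm were 12.26, 9.31 and 5.02, so Vim and Nes were read well above the floor before differentiation too.

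Known regulators of epithelial genes changed as well. Of 14 activators and epithelial factors, 9 fell (64.3%, beside 9.54% of all genes) and 0 rose (beside 11.1%), with a median of -3.77. Of these, Cdx2 and Tfap2c are also among the trophectoderm markers below, and Grhl3 and Trp63 among those of surface ectoderm. Klf5 was high in ESC, with a mean of 13.09. Klf5 fell by 6.60 ± 0.33, Grhl2, a Grainyhead-like factor that binds genes of claudins and Cdh1, fell by 6.23 ± 0.48, and Elf3, an epithelial ETS factor, fell by 5.95 ± 0.29 (adjusted p = 0.000153, 0.000594 and 0.000141). With a floor of 6 the change of Elf3 was -2.44, and with the mean of its probes that of Grhl2 was -3.60. Of 8 repressors of epithelial genes, 6 rose (75%, beside 11.1% of all genes) and 0 fell, with a median of 1.53 (6 and 1 with the replicate block). Zeb2 rose by 5.84 ± 0.33 (3.18 with the mean of its 3 probes), Foxc2 by 3.94 ± 0.36 and Zeb1 by 3.01 ± 0.26 (adjusted p = 0.000222, 0.00102 and 0.000868). With a floor of 6 Foxc2 differed by 0.87 and did not pass. The rises of Twist1 (1.08 ± 0.24, adjusted p = 0.0282) and Snai2 (1.02 ± 0.20, adjusted p = 0.0169) were less firm. Their calls ended in 5 and 4 of the 6 fits that leave out an array. Snai1, which represses Cdh1, went the other way by -2.31 ± 0.80 without passing (adjusted p = 0.106), and with the replicate block it fell (adjusted p = 0.00226).

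**Figure D5:**
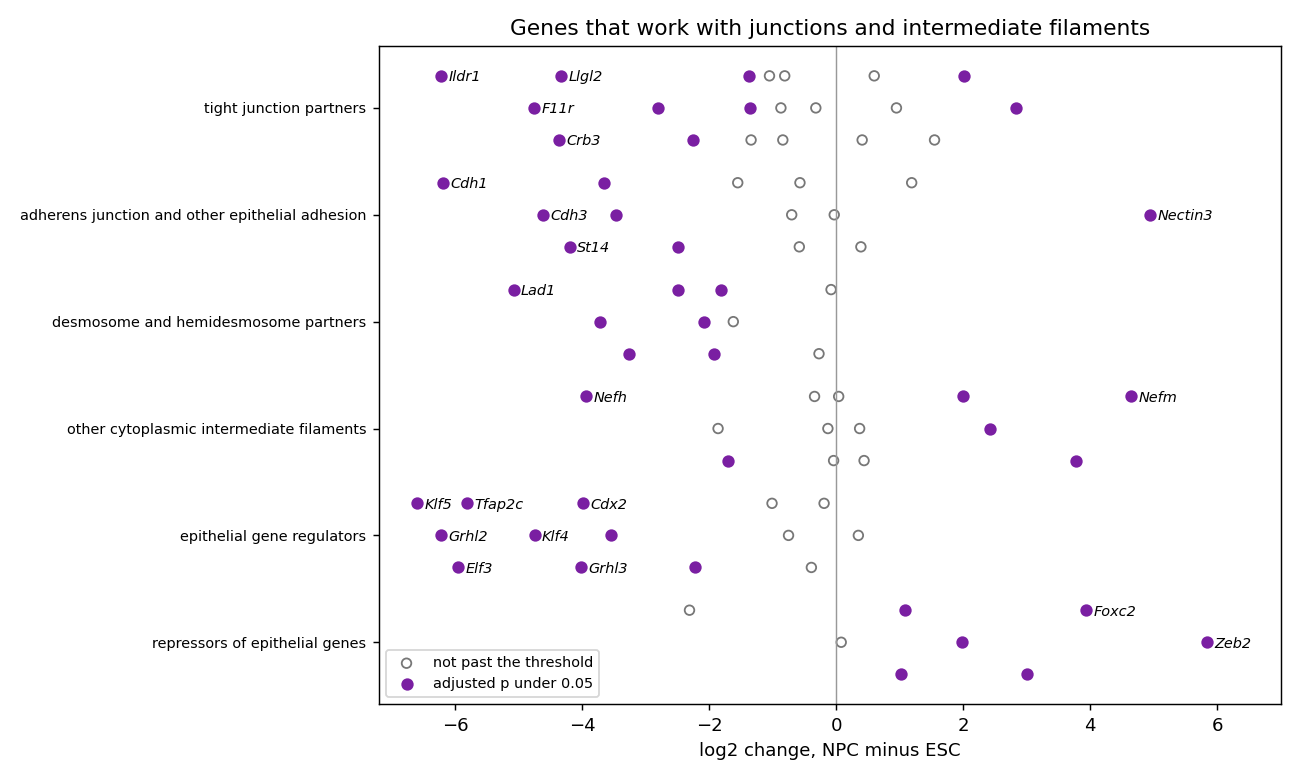
Log2 change (NPC minus ESC, horizontal axis) of each gene of 6 lists (rows), offset vertically for legibility, with filled points where the adjusted p was under 0.05. In the list of epithelial regulators all 9 filled points lie below 0, and in the list of repressors all 6 lie above it.

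Markers of trophectoderm, endoderm and fibroblasts were read as well, and the lists differed in direction. Of 8 trophectoderm markers 5 fell (62.5%, beside 9.54% of all genes) and 0 rose (beside 11.1%). Their mean log2 signal was 7.04 to 7.28 on ESC arrays and 4.66 to 4.78 on NPC arrays. Cdx2 had means of 5.20 and 1.22, Plet1 of 9.97 and 4.77, and Tfap2c, which ES cells express too, of 11.27 and 5.47. Cdx2 lay under 6 on all arrays, and with a floor of 6 its difference was 0, so that 4 of the markers fell. Elf5 was under 4 and Hand1 under 7 on all arrays, and neither passed. Gata3 went the other way, with 5.43, 5.63 and 5.77 in ESC and 6.47, 7.89 and 6.66 in NPC. Its difference of 1.39 ± 0.41 did not pass (adjusted p = 0.0653), but with the replicate block it rose (adjusted p = 0.0375). Of 8 endoderm markers 1 fell (12.5%) and 2 rose (25%), or 2 and 2 with the block (mean signal 4.15 to 4.48 on ESC and 4.56 to 4.85 on NPC arrays). The rises were Foxa2 (ESC and NPC means of 4.54 and 10.23) and Dab2 (4.93 and 7.62). Sox7 fell, and Gata6 fell with the block only. Gata4, Sox17, Afp and Ttr did not pass in either fit. Of 8 fibroblast markers 1 fell (12.5%) and 4 rose (50%), or 1 and 5 with the block (5.02 to 5.30 on ESC and 5.35 to 5.94 on NPC arrays). The part of such cells in the changes of keratins and claudins was not tested.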

How the data were processed

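Total RNA of 3 ESC and 3 NPC samples was amplified once, Cy3-labelled and put on Agilent arrays, per the labels' protocols. The deposited table holds the authors' log2 values of 55681 probes; base 2 was inferred from their range. After sorting, all 6 columns hold the same values, as quantile normalisation by the authors gives, which hides any shift of most transcripts. The submitters' processing notes name limma without a version. How background was corrected, detection calls and scan batches: not given in the sources used here. The number of arrays limits the precision.

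Of the probes, 30626 had 1 gene symbol and 25055 are unnamed here. The 104 genes had 129 probes, 22 of them more than 1. The RefSeq table (GRCm38.p6) held all 104 Entrez IDs and gave gene order. Sequences came from a separate RefSeq table of promoters of the same build, which held 68 of the 104. The difference between groups was fitted with limma's lmFit and eBayes (version 3.58.1, R 4.3.3), two-sided and without covariates, and adjusted over 21893 genes. Any member may be named, with full values for those called with at least a 4-fold change. Neighbouring claudin genes and the 3 uncalled genes of highest mean in each family are given by array values, means or differences. Of each partner list the 3 largest called changes and the largest against the majority are named, and of marker lists any member. St14, Vim, Snai1, Snai2, Pard3 and Magi1 fall outside this and were chosen after their values were seen. The members and lists were chosen with earlier results of these data known. The test was checked on simulated data with independent noise for each gene and array. That check did not cover deviations shared by same-numbered arrays.

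Replicate numbers in the titles were checked for pairing by how far arrays with 1 number deviate together, across genes, once group means are removed (r = 0.189, 0.721 and 0.768). Each is over 0.1, although NPC replicate 1 correlated more with ESC replicate 2 (0.402). All calls come from the fit without the number. The fit with it as a block is an alternative, and its counts or adjusted p are given where a named gene's call or a list's count changed. The other alternatives were a floor of 6, only genes with a mean of at least 6, the mean of all probes, an intensity trend and leaving out each array.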

Additional observations from a re-analysis of the deposited data

How the results depend on the processing

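Of the 20 called genes, 11 kept direction and call under every alternative run: Cldn3, Cldn5, Cldn6, Cldn7, Dsp, Epcam, Krt8, Krt17, Krt18, Krt19 and Pkp2; no called gene reversed. With the replicate number as a block, 19 of the 20 stayed past the threshold (not Krt20) and 8 others passed (Cldn2, Cldn12, Cldn19, Krt1, Krt16, Krt32, Krt73 and Ocln). The block gave 4147 rises and 3660 falls over all genes (main 2423 and 2089; 18.9% and 16.7% of genes), and 7 rises among the junction and keratin genes (main 3), of which 4 were claudins (main 2) and 3 keratins (main 1). With a floor of 6 there were 1527 rises and 1297 falls over all genes, 1 claudin rise, and 2 desmosome falls (main 5). With only genes of mean at least 6, fewer genes were tested: 1380 fell over all genes, 1 junction or keratin gene rose, 0 claudins rose and 3 desmosome genes fell. With the mean of all probes 0 keratins rose. Leaving out 1 array gave 1475 to 2644 rises and 1289 to 1923 falls over all genes. Among the junction and keratin genes it gave 11 to 18 falls, the lowest without NPC replicate 1, and 2 to 4 rises. The claudins had 1 to 3 rises, the group of Epcam, Ocln and Tjp genes 1 to 3 falls, and the desmosome genes 2 to 5 falls. The intensity trend moved no count by over 1.5 times. The causes of these shifts were not tested. Signals near the bottom of the scale limit what can be said of the 61 genes under 6 on every array.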

Other observations

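Genes known from surface ectoderm, the tissue in which many of these keratins and desmosomal cadherins are used, did not move as a group. Of 8 such markers 1 rose (12.5%, beside 11.1% of all genes) and 2 fell (25%, beside 9.54%), with a median change of 0.04 on the log2 scale. With the replicate number as a block 3 rose and 3 fell: Tfap2a (0.89, limma, adjusted p = 0.0442) and Gata3 (1.39, 0.0375) joined the rises and Dlx3 (-0.95, 0.0186) the falls. Trp63, the master factor of stratified epithelium, read 9.30 to 10.36 over the 6 arrays and differed by 0.35 without passing (limma, adjusted p = 0.501), beside Krt5 and Krt14, known as its targets, which did not pass either. Tfap2b, an AP-2 factor of neural crest and ectoderm, rose by 6.35 ± 0.30 (adjusted p = 0.000133), with an ESC mean of 1.10 and an NPC mean of 7.45, so that with a floor of 6 its rise was 1.45. Grhl3, a factor of neural tube closure and of the epidermal barrier, fell by 4.02 ± 0.28 (adjusted p = 0.000405).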
